A study of Mus musculus with 6 samples.

Results

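The genes described here are 8 transcripts whose FPKM values were much lower when exosomes were added to C2C12 cells in 0.2% FBS. They were also picked as little known in muscle, and published muscle roles of single genes were not reviewed here. They are Spink4, Ces2c, Chil1, 8430408G22Rik, Fam167a, Tigit, R3hdml and Hsd11b1, and each matched 1 row by symbol among the 20950 entries of the table. They were picked on the difference between 0.2% FBS with and without exosomes, so that difference is given as a description with no test. C2C12 is an established line of mouse myoblasts, which form myotubes in low serum, and the study asked how exosomes of fetal bovine serum (FBS) act on that step. RNA was sequenced in 6 libraries of 5 conditions. The cells were growing in 10% FBS, or differentiating in 2% HS (horse serum) or 0.2% FBS, and each differentiation medium was also used with exosomes isolated from FBS, in the amount held by 10% FBS. Only 0.2% FBS + exosome had 2 libraries, called replicates 1 and 2. The other 4 conditions had 1 library each, so a difference between them has no replicate check, and no source says whether replicates 1 and 2 came from separate cultures. In this bulk RNA, fewer cells that express a gene and less RNA of it per cell cannot be told apart.

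Differentiation of myoblasts is driven by the transcription factors MyoD and myogenin, which bind E-boxes (CANNTG), together with MEF2 factors, which bind A and T rich sites. They switch on fusion genes, the contractile apparatus and muscle metabolism. The names of the 8 genes do not refer to that programme, which does not exclude a role in it. Spink4 (a small secreted inhibitor of serine peptidases), Chil1 (a secreted chitinase-like lectin) and R3hdml (a secreted protein of the CAP superfamily) are extracellular. Ces2c, a carboxylesterase, and Hsd11b1, which regenerates active glucocorticoid, are enzymes of the endoplasmic reticulum. Tigit is an inhibitory receptor known from T and NK cells, 8430408G22Rik (current symbol Depp1) is a FoxO-responsive gene linked to autophagy, and the function of Fam167a is little known.

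The deposited values are FPKM, reads divided by transcript length and by library depth, and differences were taken on log2(FPKM + 1), which understates changes of low genes. The library sums were 461439 to 515215 FPKM, and depth, estimated from the spacing of low values, lay between 33700000 and 39500000 reads. A mean of 1 FPKM or more was reached by 10731 genes, called the genes tested, the 8 included. Their median difference was 0.14 for exosomes in 0.2% FBS, −0.08 for 2% HS minus 10% FBS and −0.04 for exosomes in 2% HS. Myogenic markers were present throughout, with Myod1 at 83.7 to 110.5 FPKM. The 10% FBS library already held 512 FPKM of Myog and 738 FPKM of the embryonic myosin Myh3, so it was not free of differentiation transcripts.

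RefSeq gave a promoter, from 250 bases before to 50 bases after the annotated start, for 6 of the 8 genes on GRCm38.p6. CANNTG occurred on either strand in 6 of these 6 promoters and in 72.3% of the 32544 mouse promoters of the same length. The E-box form CAGCTG, which overlaps CANNTG by definition, occurred in 2 of 6 (8430408G22Rik and Tigit) and in 16.4% of all promoters. The ends of the MEF2 site alone, CTA and TAG with any 4 bases between, occurred in 1 of 6 (8430408G22Rik) and in 3.7% of all. In 8430408G22Rik the bases between are mostly C, unlike the A and T of a MEF2 site. CATTCC (14.6% of all promoters) and TATAAA (13.6%) occurred in 0 of 6. A match is only a match of letters. The 250 bases before the start are shown for 3 genes, 5′ to 3′ on the strand of the gene, with each CANNTG and the CTA to TAG stretch in capitals. 8430408G22Rik (chr6:116650434-116650683, plus strand) carries that stretch and the CAGCTG. Chil1 (chr1:134181906-134182155, plus strand) lies beside muscle genes described further on. R3hdml (chr2:163492068-163492317, plus strand) had the highest level of the 8.
8430408G22Rik: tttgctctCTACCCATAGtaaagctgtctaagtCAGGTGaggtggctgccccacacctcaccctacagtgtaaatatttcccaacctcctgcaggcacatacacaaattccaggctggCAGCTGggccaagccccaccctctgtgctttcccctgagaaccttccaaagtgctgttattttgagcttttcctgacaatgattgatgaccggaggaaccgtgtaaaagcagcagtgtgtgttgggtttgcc
Chil1: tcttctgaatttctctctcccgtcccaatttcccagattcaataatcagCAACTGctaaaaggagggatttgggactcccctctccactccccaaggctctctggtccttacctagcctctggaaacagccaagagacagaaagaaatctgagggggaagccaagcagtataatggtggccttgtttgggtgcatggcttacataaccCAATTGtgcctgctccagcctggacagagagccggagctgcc
R3hdml: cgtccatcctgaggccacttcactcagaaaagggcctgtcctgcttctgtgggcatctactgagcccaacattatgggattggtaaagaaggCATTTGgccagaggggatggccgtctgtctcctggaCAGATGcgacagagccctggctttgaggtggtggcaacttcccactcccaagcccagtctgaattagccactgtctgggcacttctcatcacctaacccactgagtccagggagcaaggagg

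The 8 genes shared 1 arrangement of the 6 libraries. In each of them, 10% FBS and both 0.2% FBS + exosome libraries lay below 2% HS, 2% HS + exosome and 0.2% FBS, a pattern found in 14.3% of the genes tested. Exosomes in 0.2% FBS enter that pattern, and the genes were picked on them, so nothing is read from the count. The comparison of 2% HS with 10% FBS uses no library of the difference that chose the genes. In it 8 of 8 genes were higher in 2% HS, against 40.1% of genes tested, and 7 of 8, all but Spink4, were higher by a log2 difference above 1, against 1.79%. The members' median difference was 1.48. In 0.2% FBS, which shares its library with the difference that chose the genes, 8 of 8 were higher than in 10% FBS by more than 1, as were 1.79% of the genes tested, and 6 of 8, all but Tigit and R3hdml, were higher than in 2% HS, as were 46.3%. With exosomes present in 2% HS, 8 of 8 still lay above 10% FBS, and both 2% HS libraries were above 10% FBS in 29.6% of genes tested. The genes were, however, picked with these libraries already known, so the counts describe them and do not test them.

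**Figure D1:**
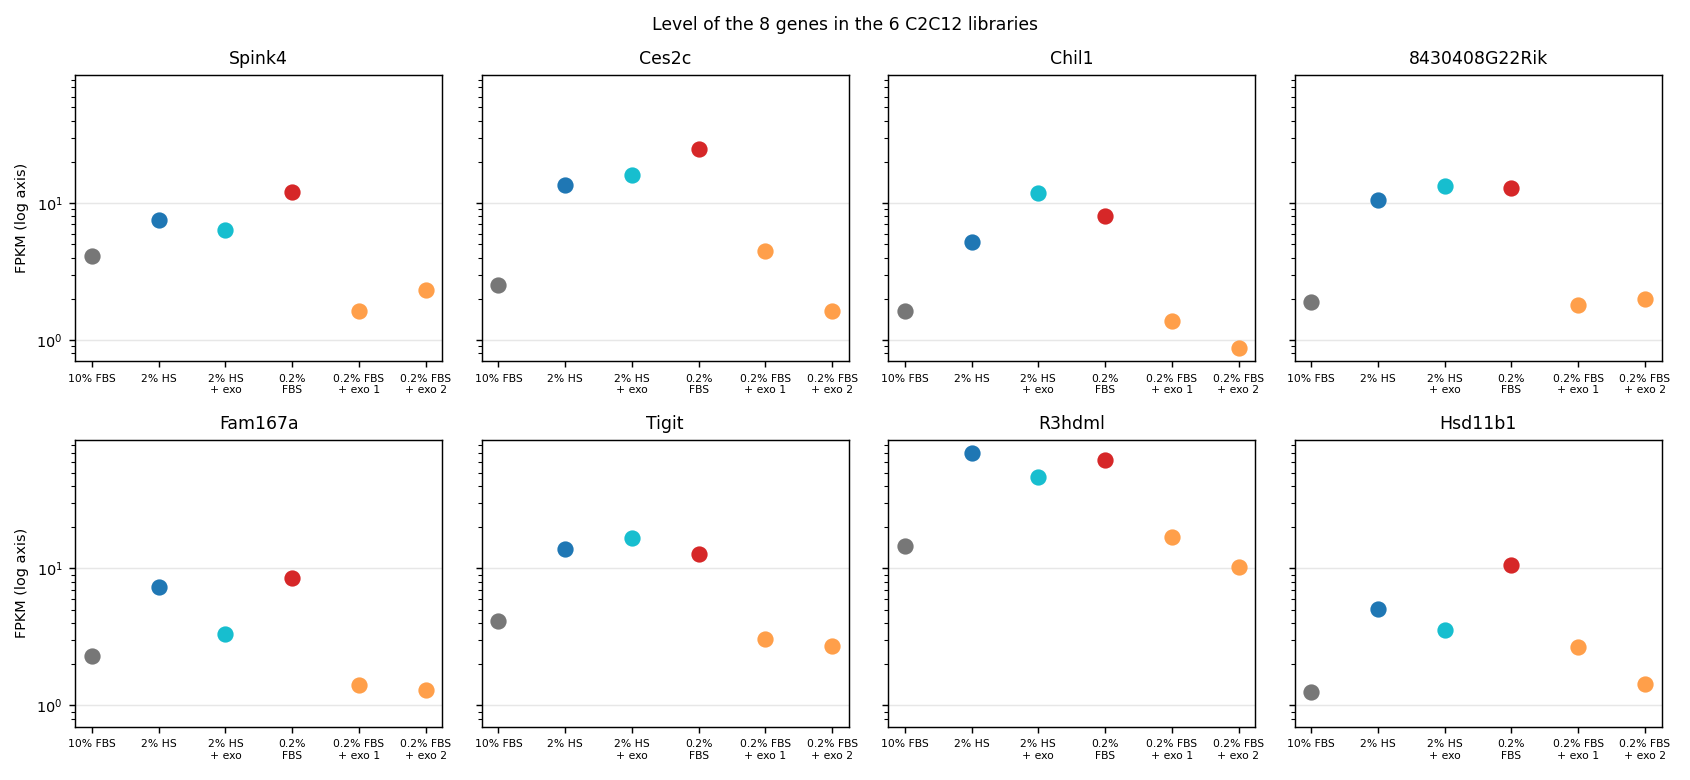
FPKM of each of the 8 genes (log axis) in the 6 libraries, 1 point per library; exo stands for exosome and 1 and 2 for its replicates. In every panel the grey 10% FBS point and both orange 0.2% FBS + exosome points lie below the other 3 points.

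A limma fit with 1 mean per condition was also made for 2% HS minus 10% FBS, with 1 library on each side. Its only residual degree of freedom comes from replicates 1 and 2 of 0.2% FBS + exosome, libraries that entered the choice of the genes, and it assumes that single libraries vary as these do. Fam167a, 8430408G22Rik and Tigit have the smallest differences between these replicates among the 8 genes (0.07, 0.09 and 0.12). The standard errors (SE) and p-values are therefore given as output of this fit, here and for exosomes in 2% HS, and support nothing about the 8 genes. The fit gave an adjusted p under 0.05 to 4 of the 8 genes, against 0.513% of the genes tested, and an unadjusted p under 0.05 to 8 of 8, against 16.8%. The 4 genes were 8430408G22Rik (adjusted p = 0.0252), Tigit (0.0416), R3hdml (0.0416) and Fam167a (0.0434). Chil1 (0.0626), Ces2c (0.0754), Hsd11b1 (0.077) and Spink4 (0.167) missed it in the same limma fit. The 4 calls were lost without limma's mean-variance trend, where the adjusted p of these genes was 0.0619 to 0.0946, and without the filter on low values, where it was 0.414 to 0.416.

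Of the secreted proteins, Spink4 is best known from goblet cells of the gut. It was at 4.10 FPKM in 10% FBS, 7.51 in 2% HS, 6.42 in 2% HS + exosome, 11.98 in 0.2% FBS, and 1.62 and 2.31 in replicates 1 and 2 of 0.2% FBS + exosome. Both exosome libraries of 0.2% FBS lay below 10% FBS, at 0.396 and 0.563 of its value, and 2% HS was 1.83 times that value. The log2 difference of 2% HS from 10% FBS was 0.74 (SE 0.22), the smallest of the 8. Its annotated transcript is only 397 bases long, and its FPKM values stand for an estimated 11 to 87 reads.

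Chil1 encodes a lectin that binds chitin without cleaving it and is made by macrophages and cartilage cells, among others. It was at 1.62 FPKM in 10% FBS, 5.24 in 2% HS, 11.9 in 2% HS + exosome, 8.05 in 0.2% FBS, and 1.39 and 0.873 in replicates 1 and 2 of 0.2% FBS + exosome. Its highest value was therefore in an exosome library, that of 2% HS, and its lowest in an exosome library of 0.2% FBS, 13.7 times lower. The log2 difference was 1.25 for 2% HS minus 10% FBS (SE 0.23), and with exosomes 0.2% FBS differed by −1.92 for replicate 1 and −2.27 for replicate 2 (SD 0.25, n = 2).

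R3hdml belongs to the CAP proteins, secreted relatives of the peptidase inhibitors PI15 and PI16. It was the most abundant of the 8, at 14.5 FPKM in 10% FBS, 69.9 in 2% HS, 46.4 in 2% HS + exosome, 61.5 in 0.2% FBS, and 17.1 and 10.3 in replicates 1 and 2 of 0.2% FBS + exosome. Its value in 0.2% FBS exceeded that of 89.1% of the genes tested. The 0.2% FBS library differed from 2% HS by −0.18 on the log2 scale, and replicates 1 and 2 of 0.2% FBS + exosome differed from each other by 0.67. The difference of 2% HS from 10% FBS was 2.19 (SE 0.30), the largest of the 8. Replicate 1 with exosomes stood at 1.17 of the 10% FBS value and replicate 2 at 0.709.

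Of the enzymes, Ces2c belongs to a family that hydrolyses ester drugs and lipids in liver and gut. It was at 2.51 FPKM in 10% FBS, 13.5 in 2% HS, 16.2 in 2% HS + exosome, 25.0 in 0.2% FBS, and 4.47 and 1.64 in replicates 1 and 2 of 0.2% FBS + exosome. It had the widest range of the 8, 15.3 times between its highest and lowest library, and the widest spread between the replicates. With exosomes, 0.2% FBS differed by −2.25 for replicate 1 and −3.30 for replicate 2 (SD 0.74, n = 2). The difference of 2% HS from 10% FBS was 2.05 (SE 0.41), and that of 0.2% FBS from 2% HS was 0.84. Of the 1896 stretches of 75 bases in its longest coding transcript, 492 (25.95%) also occur in transcripts of other genes, most of them in the pseudogene Ces2d-ps, so its reads are not all assignable by sequence. Ces2b, which lies beside it and shares 31 of these stretches, was at 0 FPKM in 10% FBS, 0.152 in 2% HS, 0.19 in 2% HS + exosome, 0.239 in 0.2% FBS, and 0.0334 and 0.0174 with exosomes in 0.2% FBS. What shared reads add to either gene was not tested.

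Hsd11b1 reduces inactive 11-keto glucocorticoids to the active hormone, with NADPH supplied by H6pd. It was at 1.26 FPKM in 10% FBS, 5.06 in 2% HS, 3.58 in 2% HS + exosome, 10.6 in 0.2% FBS, and 2.68 and 1.44 in replicates 1 and 2 of 0.2% FBS + exosome. Alone among the 8 genes, it had both exosome libraries of 0.2% FBS above 10% FBS, at 2.13 and 1.14 times that value. In 4 genes (Spink4, Chil1, Fam167a and Tigit) both lay below it, as in 31% of the genes tested, and in 3 they lay on either side. Its value in 0.2% FBS was 2.09 times that in 2% HS, the largest such ratio of the 8 (log2 difference 0.93), with 1 library on each side. The difference of 2% HS from 10% FBS was 1.42 (SE 0.29).

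Tigit, the receptor, is known to hold back T and NK cells on binding the poliovirus receptor Pvr or nectins on other cells. It was at 4.13 FPKM in 10% FBS, 14.0 in 2% HS, 16.7 in 2% HS + exosome, 12.7 in 0.2% FBS, and 3.05 and 2.71 in replicates 1 and 2 of 0.2% FBS + exosome. Thus 2% HS, 2% HS + exosome and 0.2% FBS lay within 12.7 to 16.7 FPKM, and 10% FBS and both 0.2% FBS + exosome libraries within 2.71 to 4.13. The difference of 2% HS from 10% FBS was 1.54 (SE 0.19), and 0.2% FBS minus 2% HS was −0.13. Of 12 listed T and NK cell markers, 0 reached 1 FPKM. Their sum was 0.275 to 0.487 FPKM per library, and the part of such cells in the values of Tigit was not tested. The highest single value of the 12 was that of Cd3g, 0.241 FPKM in replicate 1 of 0.2% FBS + exosome. Cd3d reached 0.202 in 10% FBS, and Ptprc, which marks blood cells, was at most 0.012. Only 2 of 845 stretches of 75 bases in the Tigit transcript occur elsewhere, both on the opposite strand of an olfactory receptor gene.

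Depp1, listed here as 8430408G22Rik, is induced by FoxO factors and progesterone in other cells. 8430408G22Rik was at 1.89 FPKM in 10% FBS, 10.51 in 2% HS, 13.3 in 2% HS + exosome, 12.8 in 0.2% FBS, and 1.80 and 1.98 in replicates 1 and 2 of 0.2% FBS + exosome. Replicate 1 stood at 0.954 and replicate 2 at 1.05 of the 10% FBS value, so the 3 low libraries were nearly equal. The difference of 2% HS from 10% FBS was 1.99 (SE 0.19). The gene lies within the span of Rassf4 with no exon in common. Rassf4, chosen after its values were seen, was at 0.293 FPKM in 10% FBS, 0.78 in 2% HS, 0.898 in 2% HS + exosome, 1.02 in 0.2% FBS, and 0.346 and 0.303 with exosomes in 0.2% FBS. It was thus low and high in the same libraries, an arrangement found in 14.3% of the genes tested.

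Fam167a was at 2.31 FPKM in 10% FBS, 7.34 in 2% HS, 3.31 in 2% HS + exosome, 8.54 in 0.2% FBS, and 1.41 and 1.30 in replicates 1 and 2 of 0.2% FBS + exosome. It was lower in each exosome library than in the control of the same medium, and of the 8 genes it had the largest decrease in 2% HS. The difference of 2% HS from 10% FBS was 1.33 (SE 0.20), and replicates 1 and 2 differed by only 0.07. Its paralog Fam167b did not exceed 0.146 FPKM in any library.

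Exosomes in 2% HS were compared over 1 library with and 1 without, neither of which entered the choice of the genes. The 2% HS library is shared with the comparison to 10% FBS. Ces2c, Chil1, 8430408G22Rik and Tigit were higher with exosomes, and Spink4, Fam167a, R3hdml and Hsd11b1 were lower. These 4 of 8 are near the 41.3% of genes tested that were higher, so the split is no result about the 8 genes. Only Chil1 passed a log2 difference of 1 (1.05, 2.28 times the control), against 0.354% of genes tested, and 0 of 8 were below −1, against 0.298%. Fam167a came nearest, at −0.95 or 0.451 of the control, and it makes the count 1 of 8 with a pseudocount of 0.1 FPKM (−1.13) or with no pseudocount and a floor of 1 FPKM (−1.15). R3hdml differed by −0.58, Hsd11b1 by −0.40, 8430408G22Rik by 0.32, Ces2c and Tigit each by 0.24 and Spink4 by −0.20. The differences of Spink4, Ces2c, R3hdml and Hsd11b1 were smaller than those between replicates 1 and 2 of 0.2% FBS + exosome, and the spread between replicates in 2% HS is unknown. The limma fit gave 0 of 8 genes an adjusted p under 0.05, against 0.0839% of the genes tested. Unadjusted, p was under 0.05 for Chil1 (0.00172, adjusted p = 0.31) and Fam167a (0.00125, adjusted p = 0.259) in limma, and for 4.72% of all genes.

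**Figure D2:**
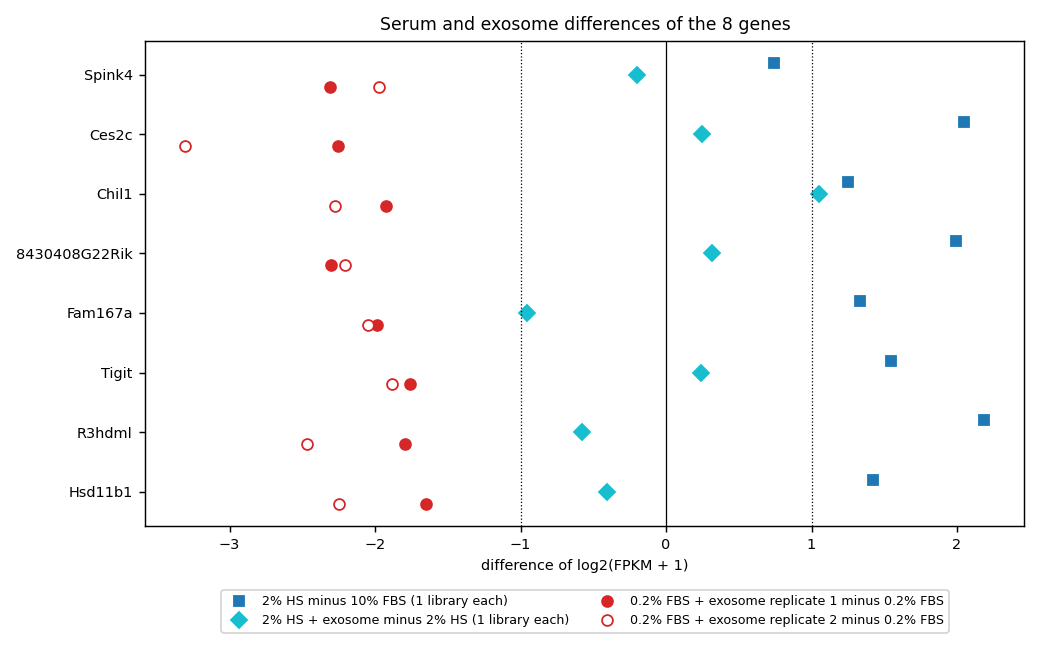
Differences of log2(FPKM + 1) for each of the 8 genes (rows): squares, 2% HS minus 10% FBS; diamonds, 2% HS + exosome minus 2% HS; filled and open circles, replicates 1 and 2 of 0.2% FBS + exosome minus 0.2% FBS. Dotted lines mark −1 and 1. The circles all lie beyond −1 because the genes were picked on them, the squares lie between 0.74 and 2.19, and the diamonds fall on both sides of 0.

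Within 0.2% FBS, replicate 1 with exosomes gave differences from −1.65 (Hsd11b1) to −2.31 (Spink4), and replicate 2 from −1.88 (Tigit) to −3.30 (Ces2c). Past −1 in each library were 8 of 8, as the choice required, and 1.61% of the genes tested. As ratios to 0.2% FBS, replicate 1 ranged from 0.136 for Spink4 to 0.277 for R3hdml, and replicate 2 from 0.0654 for Ces2c to 0.214 for Tigit. Replicate 2 was the lower of the pair in 6 genes and the higher in Spink4 and 8430408G22Rik. Ranked among the 10731 genes by the mean of both libraries, from the most negative difference, Ces2c stood at rank 3, 8430408G22Rik at 6, Spink4 at 9, R3hdml at 10, Chil1 at 13, Fam167a at 17, Hsd11b1 at 26 and Tigit at 34. For comparison, the 5 differentiation genes Myog, Tmem8c (Mymk), Ckm, Acta1 and Myh3 had differences of −0.82, −1.37, −1.13, −1.46 and −1.58, and were not picked on this difference as the 8 were. Their differences of 2% HS from 10% FBS were 0.14, 1.496, 1.25, 1.15 and 1.09.

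The 8 genes lie on 7 mouse chromosomes (mm10, GENCODE vM21), with Chil1 and Hsd11b1 both on chromosome 1. Within 100 kb of them are 19 other protein-coding genes that were tested. Of these only Mybph and Adora1, both beside Chil1, passed a log2 difference of −1 with exosomes in 0.2% FBS, where 2.25% of genes tested did. The same 2 were the only ones past 1 in 2% HS minus 10% FBS, where 1.79% of genes tested were. Chil1 (chr1:134182176-134190181) is followed on the same strand by Mybph, a myosin-binding protein of the thick filament, after a gap of 3267 bases. Then come Adora1, an adenosine receptor, and Myog, the gene of myogenin, whose start is 107.8 kb from that of Chil1. Mybph was at 248 FPKM in 10% FBS, 794 in 2% HS, 1011 in 2% HS + exosome, 789 in 0.2% FBS, and 273 and 141 with exosomes in 0.2% FBS. Adora1 was at 36.1, 109, 145, 109, 36.9 and 20.1 FPKM in the same order, and Myog at 512, 564, 719.8, 663, 350.2 and 401. Mybph, Adora1 and Myog were high and low in the same libraries as Chil1, an arrangement found in 14.3% of the genes tested. Myog differed by only 0.14 between 2% HS and 10% FBS. All 3 neighbours, like Chil1, were higher with exosomes in 2% HS, by 0.35 for Mybph, 0.40 for Adora1 and 0.35 for Myog. On the other side of Chil1, Chit1, a true chitinase of the same family, did not exceed 0.189 FPKM.

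**Figure D3:**
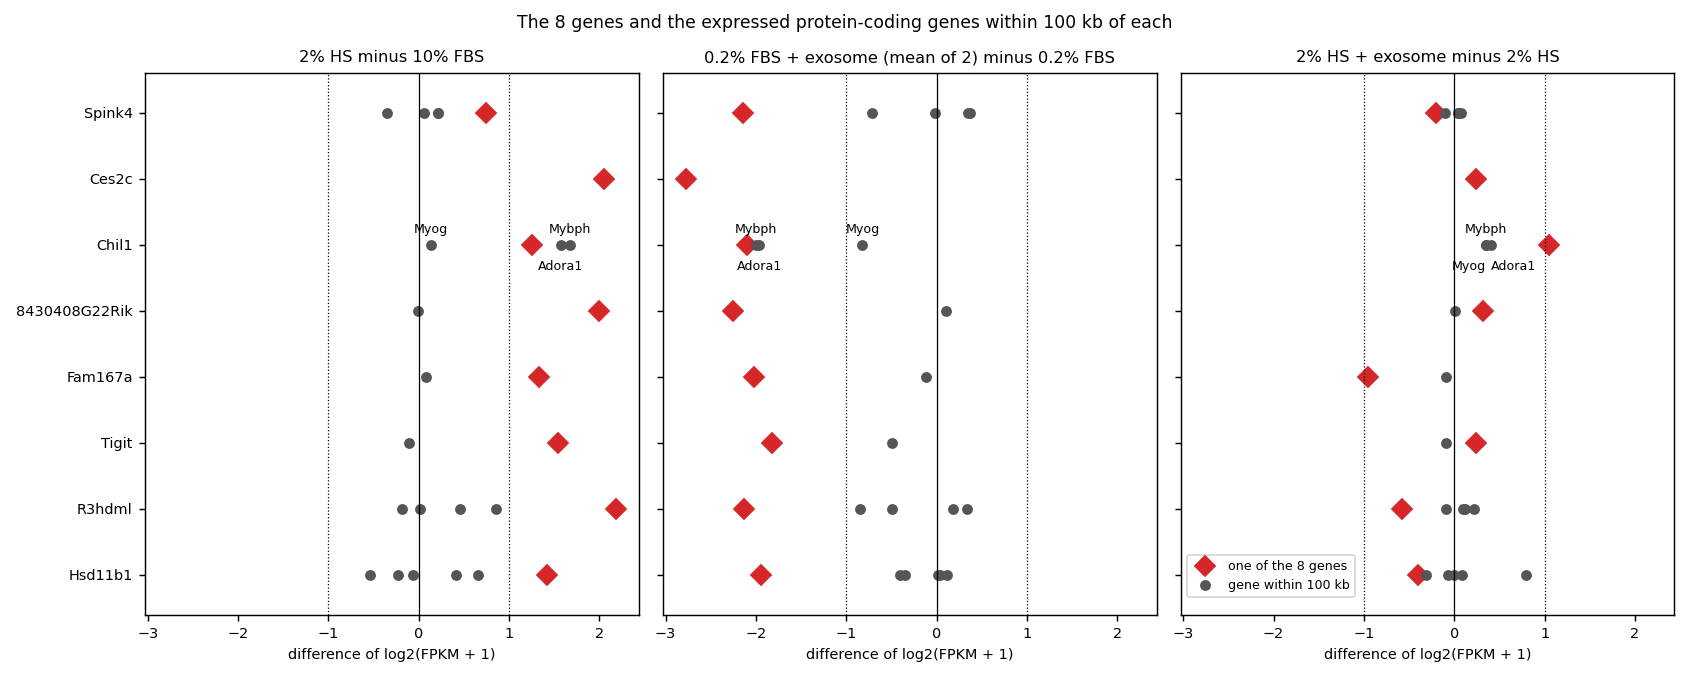
Differences of log2(FPKM + 1) in 3 comparisons (panels) for each of the 8 genes (red diamonds, rows) and for the 19 protein-coding genes within 100 kb of them that were tested (grey points). Dotted lines mark −1 and 1. Only Mybph and Adora1, in the row of Chil1, lie past a dotted line among the grey points.

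The other 17 neighbours stayed within 1 in these comparisons. Beside Spink4, the co-chaperone gene Bag1 differed by −0.72 with exosomes in 0.2% FBS and Chmp5 by −0.01. Farther from Spink4, B4galt1 differed by 0.35 and Nfx1 by 0.37. Within 100 kb of R3hdml, Jph2, which holds the junction of plasma membrane and sarcoplasmic reticulum together, differed by −0.85. Fitm2 and Oser1, nearer to R3hdml on that side, differed by −0.49 and 0.34, and Ttpal on the other side by 0.18. Beside Hsd11b1, G0s2, an inhibitor of fat breakdown, differed by 0.03, and its largest difference was 0.79 with exosomes in 2% HS. Within the same distance, Zbtb20 near Tigit differed by −0.49, Mtmr9 near Fam167a by −0.12 and Zfp422 near 8430408G22Rik by 0.10. Ces2c had 0 neighbours with a mean of 1 FPKM.

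Genes with the most similar profile were found by the root mean square difference of log2(FPKM + 1), each gene centred on its mean, over the 6 libraries. Tigit had the closest ones. Tcap, a titin-binding protein of the Z-disc, differed from it by 0.06, BC051019 by 0.09 and Lmod3, which builds thin filaments, by 0.11. In 0.2% FBS, Tcap stood at 14.2 FPKM without exosomes and 3.68 and 3.04 with them. For Chil1 the nearest were Tmem182 (0.21), a muscle membrane protein, followed by Adora1, near it on chromosome 1, and Dclk1 (both 0.25). Fam167a came nearest to Macc1 (0.21), Anxa8 (0.24) and Susd5 (0.25), of which Macc1 was at 5.44 FPKM in 2% HS and 2.45 with exosomes, lower as Fam167a was. Lmod2 (0.24), a relative of Lmod3, and Msln (0.26) were close to R3hdml. 8430408G22Rik came nearest to Tigit itself (0.25), Tmem182 (0.26) and Murc (0.28), a cavin of muscle. Spink4 came nearest to Apobec2 (0.26), Fam167a (0.27) and Synpo2l (0.28), and Hsd11b1 to Slc2a6 (0.28), Hspb2 (0.31) and Xirp1 (0.31). Myo18b (0.36) and Mybph (0.38) were close to Ces2c, at larger differences than the genes given for the other 7. Among the 28 pairs of the 8 genes the value ran from 0.25 to 0.70, with a median of 0.51. Chil1 and Hsd11b1 were the least alike pair (0.70) and 8430408G22Rik and Tigit the most alike. All these genes are low in the 2 exosome libraries of 0.2% FBS, as is any gene like the 8, and the 6 points are single libraries.

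**Figure D4:**
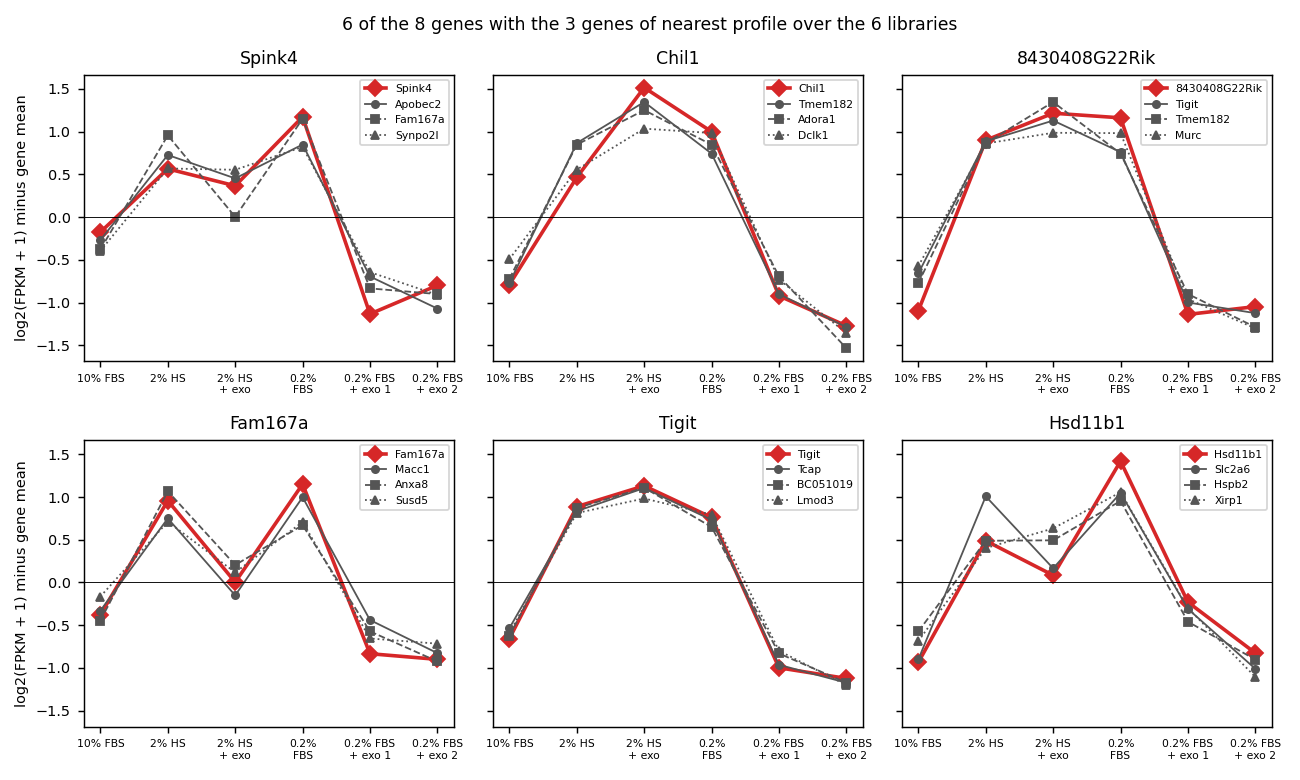
log2(FPKM + 1) minus the mean of the gene over the 6 libraries, for 6 of the 8 genes (red; Ces2c and R3hdml are not drawn) and the 3 genes of nearest profile (grey); lines only join the points of 1 gene. The red and grey lines nearly coincide for Tigit (root mean square differences 0.06 to 0.11) and lie farther apart for Hsd11b1 (0.28 to 0.31).

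Most relatives of the 8 genes gave little signal. Of 14 other serine peptidase inhibitors of the Kazal and HAI types found in the table, 0 reached 1 FPKM, and the highest value was 0.243. Of 17 other carboxylesterases only Ces1a reached it, at 0.87 FPKM in 10% FBS and 1.70 in 0.2% FBS, with 2.29 and 1.83 when exosomes were added. Of 8 chitinases and chitinase-like genes, Chid1, Ovgp1 and Ctbs reached it, and 0 of these passed a log2 difference of 1 in either direction in the 3 comparisons. Of 13 other CAP genes 4 reached it. Pi15 was at 2.83 FPKM in 10% FBS, 1.43 in 2% HS, 4.70 in 2% HS + exosome, 6.85 in 0.2% FBS, and 1.97 and 4.09 with exosomes in 0.2% FBS. It was thus lower with exosomes in 0.2% FBS (−1.40 and −0.63). With a mean of −1.02 it was 1 of the 4 past −1, against 2.25% of the genes tested. In 2% HS it was higher with exosomes (1.23, past 1 as in 0.354% of the genes tested), where R3hdml was lower. Pi16, Glipr1 and Glipr2 stayed within 1.

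Ligands of Tigit were present. Pvr was at 27.6 FPKM in 10% FBS, 38.9 in 2% HS, 47.5 in 2% HS + exosome, 42.0 in 0.2% FBS, and 31.7 and 26.3 with exosomes in 0.2% FBS. It was high and low in the same libraries as Tigit, an arrangement found in 14.3% of the genes tested, and had a smaller range. Pvrl2 (nectin-2) lay between 11.0 and 15.7 FPKM, and of the 5 genes of this list that reached 1 FPKM, 0 passed a log2 difference of 1. Of 15 genes of corticosteroid handling, 11 reached 1 FPKM. H6pd, the partner of Hsd11b1, lay between 10.4 and 14.9 FPKM and the glucocorticoid receptor Nr3c1 between 13.7 and 20.7. Tsc22d3, a target of that receptor, was at 12.3 FPKM in 10% FBS, 19.2 in 2% HS, 29.5 in 2% HS + exosome, 17.96 in 0.2% FBS, and 11.5 and 13.5 with exosomes in 0.2% FBS. Targets of the receptor differed both ways with exosomes in 0.2% FBS. The difference was −0.49 for Tsc22d3, −0.14 for Fkbp5 and −0.13 for Sgk1, but 0.30 for Per1, 0.55 for Klf9, 0.87 for Dusp1 and 0.81 for Mt2. Among the 11, only the metallothionein Mt1 passed 1 with exosomes in 0.2% FBS (0.86 and 1.48, mean 1.17), where 1.8% of genes tested were, and 0 were below −1. The median of the 11 was 0.47, against 0.14 for the genes tested. All 14 genes of the FoxO list reached 1 FPKM. Fbxo32, a muscle ubiquitin ligase, and Irs2, an insulin receptor substrate, were past 1 with exosomes in 0.2% FBS, as were 1.8% of the genes tested. Each differed by 1.02, but by 0.91 and 0.94 after scaling to the same 75th percentile. Only Trim63, another muscle ligase, passed 1 in 2% HS minus 10% FBS (1.07), as did 1.79% of the genes tested. Trim63 differed by −0.77 with exosomes in 0.2% FBS. The 14 genes had a median of 0.34 with exosomes in 0.2% FBS, against 0.14 for the genes tested, with members on both sides of 0.

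Markers of cells in which some of the 8 genes are best known were also measured. The 11 goblet cell and gut markers summed to at most 0.249 FPKM per library, with Tff3, Agr2 and Cdx2 at 0 in all 6. The highest single value was that of Spdef, 0.1 FPKM in 0.2% FBS. The 6 liver markers summed to at most 0.678 FPKM, with Alb and Fgb at 0 throughout and Cyp2e1 the highest, at 0.545 in 10% FBS. Of 6 macrophage and neutrophil markers found, Cd68 (1.19 to 2.00 FPKM) and Lyz2 (0.813 to 1.46) reached 1 FPKM. Itgam reached 0.334 in 2% HS + exosome, S100a9 was at 0 throughout and Csf1r did not exceed 0.0884. Of 6 adipocyte markers, Pparg (1.88 to 3.06 FPKM) and Lep (1.01 to 1.62) reached 1 FPKM. Fabp4 reached 0.336 in replicate 2 of 0.2% FBS + exosome, Cfd was at 0 throughout and Adipoq did not exceed 0.0286. The sums of these lists were 2.42 to 3.70 FPKM for macrophages and neutrophils and 3.27 to 4.34 FPKM for adipocytes. The first exceeds Chil1 in 10% FBS and both 0.2% FBS + exosome libraries, and the second exceeds Hsd11b1 in these and in 2% HS + exosome. The part of such cells in the values of any of the 8 genes was not tested.

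The estimated reads behind the values set their precision. Spink4 had the fewest, 11 and 15 in the 0.2% FBS + exosome libraries and 32 to 87 in the other 4. The lowest library of Chil1 had 48 and that of Tigit 66, both replicate 2 of 0.2% FBS + exosome. R3hdml had from 311 to 2407 over the 6 libraries, Ces2c from 98 to 1623 and Fam167a from 177 to 1260. These estimates assume fragments of 200 bases and the longest annotated coding transcript, and no interval was computed from them. Apart from Ces2c and Tigit, 0 stretches of 75 bases of the 8 transcripts occur in another annotated gene, and none of the 8 has an exon that overlaps an exon of another gene.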

How the data were processed

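RNA of C2C12 cells was sequenced as 75 bp single-end reads from stranded mRNA libraries (the labels name a miRNeasy kit for the RNA, the paper RNeasy). The authors trimmed reads with cutadapt 1.9.1, mapped them to mm10 with TopHat2 2.1.0 and computed FPKM with Cufflinks, and deposited 1 table of FPKM values. The annotation and strand setting are not given in the sources used here. Of the 20950 entries, 4500 were at 0 in every library.

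Differences were taken on log2(FPKM + 1) and set against the study's threshold of 1 or −1, over the 10731 entries with a mean of at least 1 FPKM. limma 3.58.1 (R 4.3.3) was fitted to all 6 libraries with a mean-variance trend and Benjamini-Hochberg adjustment, and was tested on simulated data. The named genes are the 8 members, relatives and pathway genes of fixed lists that reached 1 FPKM, expressed neighbours within 100 kb, the 3 nearest profiles and 5 differentiation genes. For Ces2c and R3hdml, 1 of the nearest profiles is not reported here. The cell type markers, Ces2b, Chit1, Fam167b and Rassf4 are named outside this rule, after their values were seen. The members and lists were chosen with earlier results of these data known. Positions and transcripts come from GENCODE vM21 and promoters from RefSeq (GRCm38.p6). The depth estimate used 2485 genes whose single transcript is over 1000 bases long, where 74.1% to 76.1% of low values lay within 0.1 of a whole read.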

Additional observations from a re-analysis of the deposited data

Results flagged for a closer look

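With exosomes, 4 of the 8 genes lay below the control in both libraries of 0.2% FBS and above it in the 1 library of 2% HS. Their log2 differences in 2% HS were 1.05 for Chil1, 0.32 for 8430408G22Rik, 0.24 for Ces2c and 0.24 for Tigit. Of the genes tested, 41.3% were higher with exosomes in 2% HS, and values below the control in 0.2% FBS were fixed by the choice of the 8. The 0.24 of Ces2c is smaller than the difference between replicates 1 and 2 of 0.2% FBS + exosome (1.05). The neighbours Mybph, Adora1 and Myog of Chil1 were also lower in 0.2% FBS and higher in 2% HS, with 0.35 for Mybph, 0.40 for Adora1 and 0.35 for Myog in 2% HS. The difference between the media was not tested here, because the genes were picked on the values in 0.2% FBS.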

How the results depend on the processing

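The count of members past −1 with exosomes in 0.2% FBS was 8 in every setting, from 8 to 8 when replicate 1 or 2 was left out. That of members past 1 in 2% HS minus 10% FBS was 7 in every setting. The count below −1 with exosomes in 2% HS was 0, and became 1 (Fam167a) with a pseudocount of 0.1 FPKM and 1 with values below 1 FPKM raised to 1. limma called 4 members in 2% HS minus 10% FBS. It called 7 after 75th percentile scaling, 0 without the filter on low values and 0 without the mean-variance trend. Over all genes it called 55, and in these settings 205, 0 (1967 at an unadjusted p under 0.05) and 1. For exosomes in 2% HS it called 9 genes, and 22, 0 (1172 unadjusted) and 7. Without that filter, 1.48% of genes were past −1 with exosomes in 0.2% FBS in place of 2.25%. The cause of these shifts was not tested. Of 96 recomputed differences of single members with both replicates, 60 moved by less than the SD of replicates 1 and 2, 36 moved by more, and 0 changed sign. Of 32 recomputed adjusted p-values in 2% HS minus 10% FBS, 21 kept their side of 0.05, 8 lost it and 3 gained it. For exosomes in 2% HS all 32 stayed above 0.05. limma was not rerun without replicate 1 or 2, since no residual degree of freedom would be left. No paired analysis was possible because the conditions compared share fewer than 2 replicate numbers. Without counts, the depth is only estimated.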
